A study of Mus musculus with 14 samples.

Results

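The autophagy receptors and the Atg8 family were taken as 10 named genes of the adipose transcriptome: the cargo receptors Sqstm1, Nbr1, Optn, Tax1bp1 and Calcoco1, and the Atg8 genes Map1lc3a, Map1lc3b, Gabarap, Gabarapl1 and Gabarapl2. All 10 were found by gene name among 54955 gene symbols or unnamed gene IDs, each as 1 row of the table. The adipose tissue came from C57BL/6 mice of postnatal week 21, and its RNA gave 7 libraries of the group named KO-Dectin1 (KO, replicates 1 to 7) and 7 of the wild type group (WT, replicates 3 to 9). Dectin-1, encoded by Clec7a, is a β-glucan receptor of myeloid cells. The labels give neither the targeted allele nor the fat depot, and no treatment or diet. Levels are in TPM, a transcript abundance scaled for gene length and library size, so they can be compared between genes. TPM keeps no read number, so depth is unknown and error here means the scatter of the libraries of a group. The libraries hold mRNA levels, and neither protein nor autophagic flux was measured.

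In selective autophagy, a receptor holds ubiquitin-tagged or membrane cargo and at the same time binds a lipid-anchored Atg8 protein on the growing autophagosome membrane. Atg8 proteins fall into the LC3 and GABARAP branches, are trimmed by Atg4 proteases and are joined to phosphatidylethanolamine by the Atg7, Atg3 and Atg16l1 machinery. Sqstm1, the receptor p62, is itself consumed with its cargo, and it also binds Keap1, the brake on the antioxidant factor NRF2. In fat cells, autophagy is known to shape differentiation and the loss of mitochondria.

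The promoter windows of Sqstm1 and Map1lc3b are shown because these were the receptor and the Atg8 gene with the smallest p between the groups, and because their levels moved together across libraries. Windows run from 250 bases before to 50 bases after a RefSeq start in build GRCm38.p6, and 9 of the 10 genes matched a window. The window of Sqstm1 is chr11:50210771-50211070 on the minus strand and that of Map1lc3b is chr8:121590188-121590487 on the plus strand. Capitals mark the TATAAA box in the first and the antioxidant response element core in the second.
Sqstm1: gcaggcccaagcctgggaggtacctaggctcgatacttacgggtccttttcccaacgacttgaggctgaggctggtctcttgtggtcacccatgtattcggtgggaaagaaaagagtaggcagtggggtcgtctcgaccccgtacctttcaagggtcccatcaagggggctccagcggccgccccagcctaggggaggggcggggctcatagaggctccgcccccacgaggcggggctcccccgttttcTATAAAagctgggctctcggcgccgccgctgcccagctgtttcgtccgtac
Map1lc3b: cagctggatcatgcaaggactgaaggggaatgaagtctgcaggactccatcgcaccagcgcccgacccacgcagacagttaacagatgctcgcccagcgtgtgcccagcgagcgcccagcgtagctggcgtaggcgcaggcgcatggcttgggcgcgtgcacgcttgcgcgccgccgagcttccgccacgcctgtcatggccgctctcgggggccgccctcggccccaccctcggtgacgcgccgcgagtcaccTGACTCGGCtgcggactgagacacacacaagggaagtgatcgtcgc
The 5 motifs searched were TGACNNNGC (antioxidant response element core), CACGTG (E-box), TATAAA on the gene strand only, GTAAACA (FOXO core) and TGATGNAA (C/EBP-ATF element), the others on both strands. Of all 32851 promoter windows, 12.4% held TGACNNNGC, 7.15% CACGTG, 8.32% TATAAA, 3.65% GTAAACA and 3.97% TGATGNAA. Among the 11 windows of the 9 genes, the TATAAA box of Sqstm1 began 1 base before its annotated start. The TGACNNNGC match of Map1lc3b began 4 bases past its start, and a further match lay in 1 of the 2 windows of Tax1bp1. A match is a string of letters and not a shown binding site.

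Clec7a stood at 6.94 ± 2.61 TPM in the KO-labelled libraries, with a range of 4.02 to 10.46, and at 10.99 ± 5.99 TPM in the WT libraries, with a range of 4.1 to 18.9 (SD of 7 libraries a group; limma adjusted p = 0.59). The targeted gene therefore did not part the groups, and a direction given here rests on the group labels. The adipocyte marker Adipoq was at 683 TPM or more in all 14 libraries, and none of the 10 adipocyte markers was at 0 in any library. KO replicate 7 and WT replicates 4 and 7 were poor in B-cell transcripts, with Cd79a at 1.52, 0.62 and 1.31 TPM against 177 TPM or more in the other 11 libraries. They were poor in T-cell transcripts too, with T-cell markers at a summed 25.4, 6.35 and 13.4 TPM against 302 TPM or more in the other 11. The name B-cell-poor used below therefore does not mean that B-cell transcripts alone were low. WT replicate 6 stood apart in another way. Its long genes (3994 bases or more) sat low against its short genes (1482 bases or less), with a difference in median log2 deviation of -0.67, where the other 13 libraries lay between -0.14 and 0.19. This long-gene measure averaged 0.04 ± 0.06 in KO and -0.07 ± 0.29 in WT (SD of 7 libraries a group, exact permutation p = 0.46).

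None of the 10 genes passed the test between the groups (limma-trend on log2(TPM + 1), adjusted over 14719 genes), where 0.0204% of all genes tested did. At an unadjusted p under 0.05, 4 of the 10 were lower in KO and 0 higher, against 6.74% and 4.67% of all genes. The balance over all genes depended on the processing, with 669 lower and 1066 higher when TPM was rescaled without mitochondrially encoded genes, against 992 lower and 687 higher. Sqstm1 was the only one of the 10 whose groups did not overlap, which held for 0.319% of all genes in either direction. Values were below 0 on the log2 scale for 8 of the 10 genes, against 45.4% of all genes, with a median of -0.26 against 0.04 over all genes. The 10 genes were chosen with earlier results of these data known, so these counts describe the list and are not independent evidence.

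**Figure D1:**
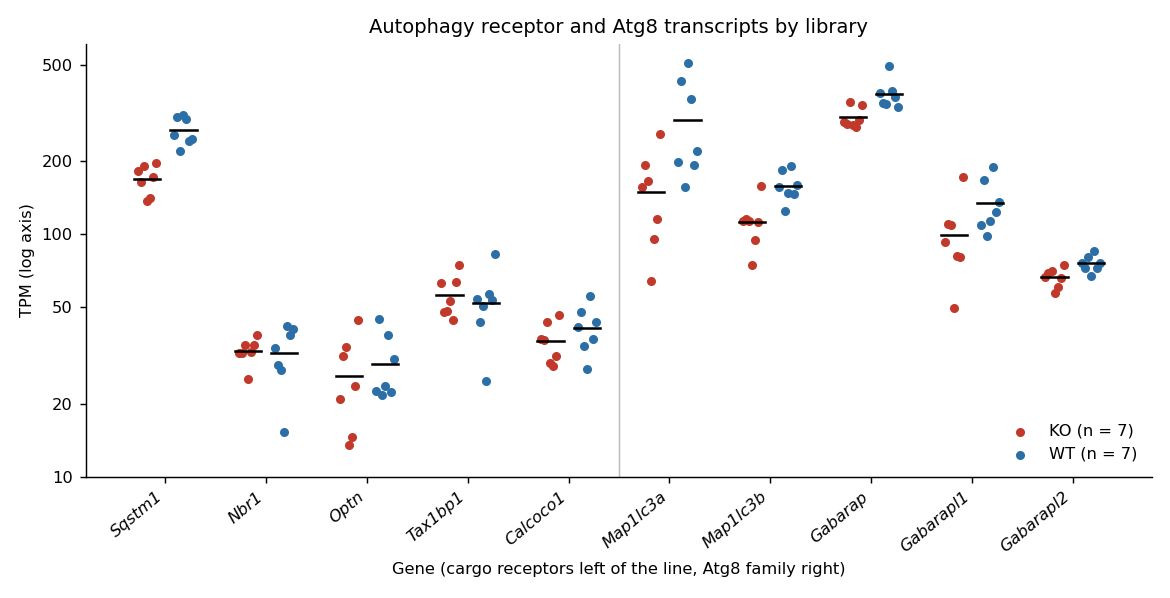
TPM of each of the 10 genes (log axis) in each library, with KO left of WT for each gene; each point is 1 library and the black lines are group means (n = 7 each). Sqstm1 lies between 137 and 197 TPM in KO and between 221 and 312 TPM in WT, while the other 9 genes overlap between the groups.

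Sqstm1 was the most abundant receptor. In KO its lowest, median and highest levels were 137, 172 and 197 TPM, and in WT 221, 256 and 312 TPM. All 7 KO libraries lay below all 7 WT libraries. The mean was 169 ± 23.5 TPM in KO and 268 ± 35.6 TPM in WT (SD of 7 libraries a group), a log2 fold change of -0.66 ± 0.12 (SE; 95% interval -0.93 to -0.40; limma adjusted p = 0.10; exact permutation p = 0.000583, the smallest possible with 7 against 7). By p, Sqstm1 ranked 11 among 14719 genes without reaching the threshold. Without WT replicate 6 the log2 fold change was -0.63 (limma adjusted p = 0.15), and without the 3 B-cell-poor libraries it was -0.63 (limma adjusted p = 0.20).

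Nbr1, a ubiquitin-binding receptor related to p62 that works together with it, did not follow. It stood at 25.3, 32.5 and 38.5 TPM (lowest, median, highest) in KO and at 15.2, 33.8 and 41.8 TPM in WT, so the groups overlapped throughout. Its log2 fold change was 0.08 ± 0.19 (SE; 95% interval -0.32 to 0.49; limma adjusted p = 0.86), and -0.08 without WT replicate 6. Tax1bp1, a receptor of ubiquitinated cargo that also restrains inflammatory signalling, stood at 44.1, 52.9 and 74.6 TPM in KO and at 24.9, 53.6 and 82.8 TPM in WT. The difference was 0.16 ± 0.21 on the log2 scale (SE; limma adjusted p = 0.75), and it was -0.0035 without WT replicate 6. Both low WT extremes came from that library.

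Optn, the receptor optineurin, which TBK1 phosphorylates in mitophagy and in the clearance of bacteria, stood at 13.5, 23.7 and 44.3 TPM in KO and at 21.7, 23.6 and 44.5 TPM in WT. Its medians were level, and 3 KO libraries lay below every WT library (log2 fold change -0.21 ± 0.26, SE; limma adjusted p = 0.74). That value moved with single libraries. It was -0.35 when KO replicate 7 was left out and -0.076 when KO replicate 4 was, and leaving out WT replicate 4 or 7 gave -0.0996 or -0.14. Calcoco1, a receptor for endoplasmic reticulum and Golgi membrane, stood at 28.6, 36.6 and 46.4 TPM in KO and at 27.9, 41.3 and 55.7 TPM in WT (log2 fold change -0.17 ± 0.16, SE; limma adjusted p = 0.67). It was -0.098 without WT replicate 7. The 95% intervals were -0.76 to 0.35 for Optn, -0.29 to 0.60 for Tax1bp1 and -0.51 to 0.16 for Calcoco1.

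Among the LC3 genes, Map1lc3b, the LC3 form most often followed as an autophagosome marker, stood at 74.4, 113 and 158 TPM in KO and at 125, 156 and 190 TPM in WT. Of the KO libraries 6 lay below every WT library, and KO replicate 7 lay among the WT values. The log2 fold change was -0.52 ± 0.15 (SE; limma adjusted p = 0.23; exact permutation p = 0.0029). Map1lc3a, the other mouse LC3 gene measured, varied most between libraries, by 7.93 times from the lowest to the highest. It stood at 64.0, 156 and 258 TPM in KO and at 156, 220 and 508 TPM in WT, with 4 KO libraries below every WT library. Its log2 fold change of -0.97 ± 0.33 was the largest of the 10 genes (SE; limma adjusted p = 0.31), and it was -0.82 without WT replicate 6.

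Gabarap, the founding member of its branch and known for receptor trafficking as well as autophagy, was the most abundant of the 10 genes. It stood at 278, 291 and 349 TPM in KO and at 336, 367 and 494 TPM in WT, with 5 KO libraries below every WT library (log2 fold change -0.32 ± 0.11, SE; limma adjusted p = 0.34; -0.11 with quantile normalization). Gabarapl1 stood at 49.7, 93.0 and 172 TPM in KO and at 98.2, 124 and 190 TPM in WT (log2 fold change -0.48 ± 0.23, SE; limma adjusted p = 0.45). Gabarapl2, also known as GATE-16 for its part in Golgi traffic, varied least within KO and within WT, with coefficients of variation of 9.11% and 7.88%. It stood at 57.1, 66.9 and 74.9 TPM in KO and at 67.1, 75.9 and 85.5 TPM in WT (log2 fold change -0.19 ± 0.09, SE; limma adjusted p = 0.45; -0.099 with quantile normalization). All 5 Atg8 genes thus had lower mean values in KO, none past the threshold.

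**Figure D2:**
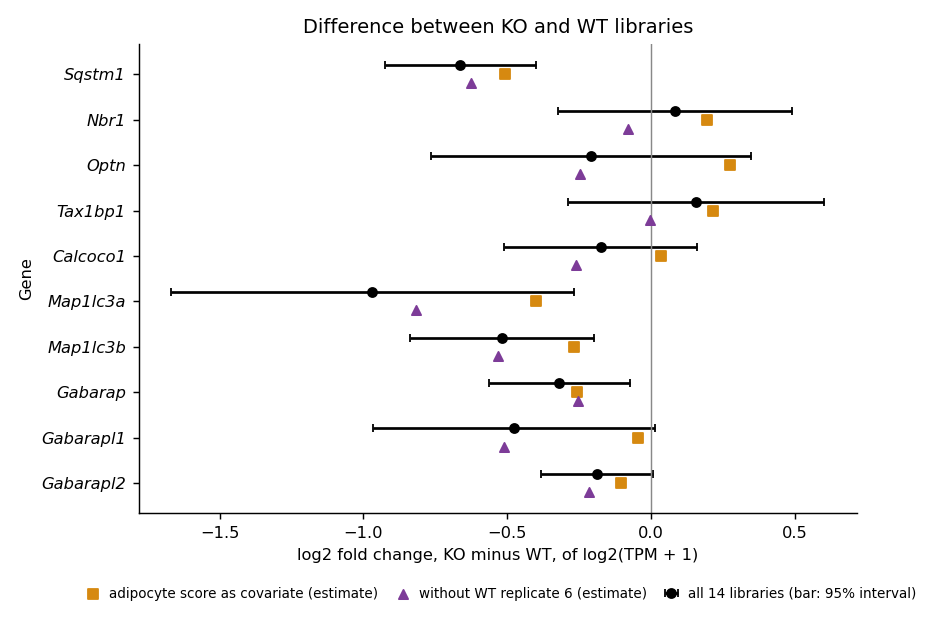
Difference of each gene in mean log2(TPM + 1), KO minus WT; circles with bars are the estimates from all 14 libraries with their 95% intervals, squares the estimates with the adipocyte marker score as a covariate, triangles those without WT replicate 6. Sqstm1 lies between -0.66 and -0.51 in the 3 fits, with -0.51 the value with the covariate. Gabarapl1 moves to -0.05 with the covariate and Nbr1 changes sign without WT replicate 6.

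By mean level over the 14 libraries the order was Gabarap at 342, Map1lc3a at 222, Sqstm1 at 219, Map1lc3b at 135, Gabarapl1 at 117, Gabarapl2 at 71.1, Tax1bp1 at 54.3, Calcoco1 at 38.6, Nbr1 at 32.7 and Optn at 27.6 TPM. Map1lc3a and Sqstm1 could not be ordered, since Map1lc3a was the higher in only 5 of 14 libraries. Sqstm1 exceeded Map1lc3b in 14 of 14 libraries. Each of the other neighbours in this order kept it in 11 to 13 of 14 libraries.

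Sqstm1 took a smaller share of the receptor transcripts in KO, and the shares of the groups did not overlap. The share was taken with the low KO values of Sqstm1 known, so it is given as a description. It made up 52.9% ± 1.8 of the summed receptor TPM in KO, with a range of 49.2% to 54.5%, and 63.6% ± 6.7 in WT, with a range of 55.6% to 77.3% (SD of 7 libraries a group). The summed TPM of the 5 receptors was 321 ± 50.4 in KO and 423 ± 46.8 in WT. The 5 Atg8 genes together gave 731 ± 155 TPM in KO and 1043 ± 201 TPM in WT. Gabarap held 42.5% ± 6.4 of the Atg8 sum in KO and 37.0% ± 5.1 in WT, and Map1lc3a 19.7% ± 4.9 in KO and 27.1% ± 7.5 in WT. The mean share of Map1lc3b was 15.3% ± 1.0 in KO and 15.4% ± 2.0 in WT. WT replicate 6 held the lowest Map1lc3b share, at 11.1%, and the other WT libraries lay between 15.35% and 17.16%. The same library held the highest Map1lc3a share, at 38.2%.

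**Figure D3:**
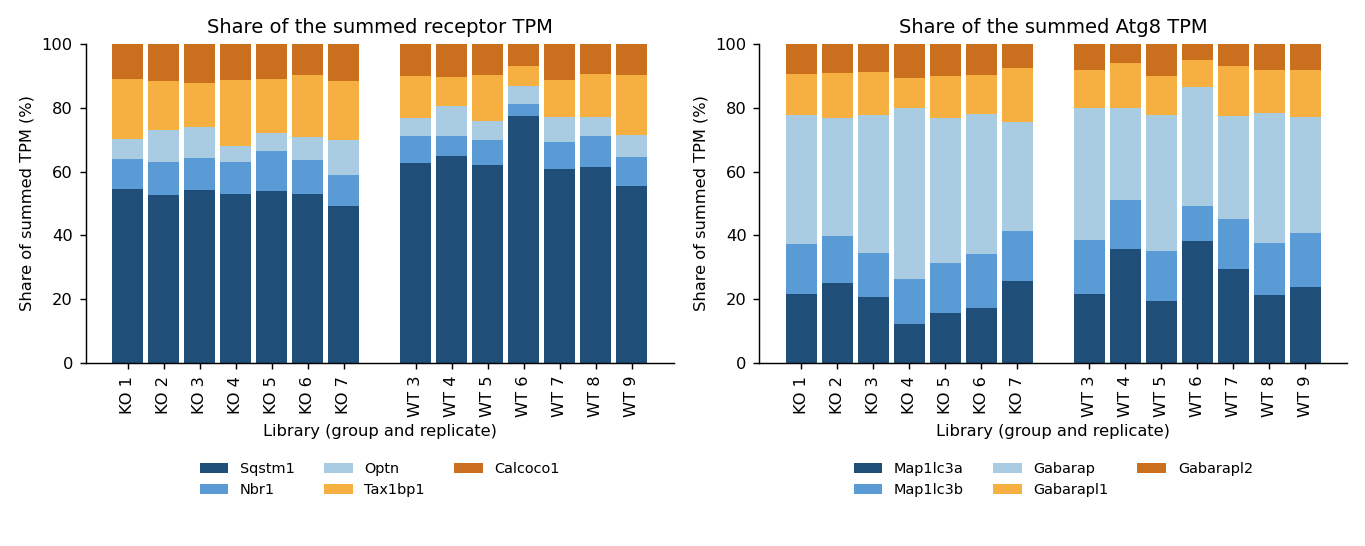
Share (%) of each receptor gene in the summed receptor TPM (left) and of each Atg8 gene in the summed Atg8 TPM (right), one bar per library, KO libraries left of WT libraries. The Sqstm1 share is 49.2% to 54.5% in the KO bars and 55.6% to 77.3% in the WT bars, and WT replicate 6 has the largest Sqstm1 and Map1lc3a shares.

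The log2 ratio of Sqstm1 to each of the other 9 genes sets them against each other within a library. Sqstm1 was put on top with its low KO values known, the 9 ratios share it, and a lower ratio in KO was to be had against most genes, so the ratios are given as a description. The difference between the groups was below 0 for 8 of the 9 genes, against 96.9% of the 14718 other genes tested. By exact 2-sided permutation tests over the 3432 ways to part the libraries, the unadjusted p was under 0.05 with a lower ratio in KO for 5 of the 9 genes, against 67.4% of all genes, and the groups did not overlap for 2 of the 9, against 13.1%. The median difference over all genes was -0.70. To Nbr1 the ratio averaged 2.32 ± 0.13 in KO and 3.07 ± 0.59 in WT (SD of 7 libraries a group), a difference of -0.75 with no overlap, and of -0.55 without WT replicate 6. To Tax1bp1 the difference was -0.82, with 4 KO libraries below every WT library. To Gabarap the ratio averaged -0.85 ± 0.13 in KO and -0.50 ± 0.17 in WT, a difference of -0.35. These groups did not overlap either, with the highest KO library at -0.668 and the lowest WT library at -0.663. The differences to Calcoco1, Gabarapl2 and Optn were -0.49, -0.48 and -0.46. The differences to Map1lc3b, Gabarapl1 and Map1lc3a were -0.14, -0.19 and 0.30.

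**Figure D4:**
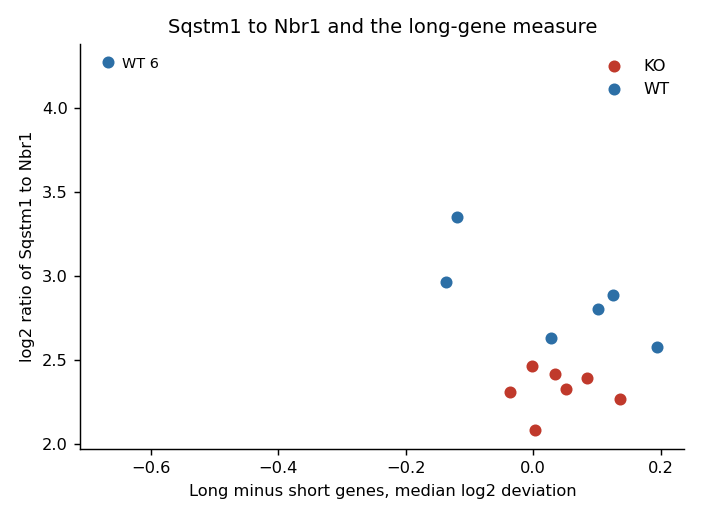
Log2 ratio of Sqstm1 to Nbr1 against the long-gene measure (median log2 deviation of genes of 3994 bases or more minus that of genes of 1482 bases or less), one point per library, KO and WT. WT replicate 6 lies at -0.67 on the measure and at 4.27 on the ratio, and the KO points (2.08 to 2.46) lie below the other WT points (2.57 or more).

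In WT replicate 6 the shortest of the 10 genes stood highest against the other WT libraries and the longest stood lowest. Map1lc3a (1112 bases) and Gabarap (1351 bases) stood there at 1.96 and 1.37 times the mean of the other 6 WT libraries, while Tax1bp1 (3285 bases) and Nbr1 (3353 bases) stood at 0.439 and 0.433 times. The genes of middle length did not keep this order. Sqstm1 (2037 bases) stood at 1.19 times, above the shorter Gabarapl2 (1677 bases) at 0.869 and Gabarapl1 (1820 bases) at 0.824 times. With the long-gene measure as a covariate, an alternative chosen after seeing the data, the log2 fold change was -0.63 for Sqstm1, -0.54 for Map1lc3b, -0.08 for Nbr1 and -0.02 for Tax1bp1 (limma adjusted p = 0.090, 0.19, 0.75 and 0.95).

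Across the 11 libraries other than the B-cell-poor ones (6 KO, 5 WT), 15 of the 45 gene pairs were correlated past an adjusted p of 0.05 (permutation test of r, 100000 resamples). The p-values below belong to r unless rho is named. Of the 9 pairs with Sqstm1, 4 passed, all with Atg8 genes. No such share was taken over pairs of all genes, so these counts describe the list and do not set it apart. The permutations also moved libraries between KO and WT, so a group difference shared by both genes can carry a pair past the threshold. Map1lc3b and Gabarap passed with r = 0.704 (adjusted permutation p = 0.048) but had r = 0.250 on deviations from the group means. The counts therefore do not show that the genes vary together within a group. Sqstm1 and Gabarap had r = 0.912 and rho = 0.918 (permutation p = 1e-05, the smallest these permutations can give; adjusted p = 0.00045; r = 0.896 without the 2 libraries farthest from the median of Sqstm1). Sqstm1 and Map1lc3b had r = 0.909 and rho = 0.909 (permutation p = 0.0001, adjusted p = 0.0023; r = 0.954 without those 2). Part of each value is the group difference itself, and on deviations from the group means r was 0.796 and 0.714. Sqstm1 and Map1lc3a had r = 0.877 (adjusted permutation p = 0.0023; r = 0.769 without the 2 farthest libraries). On deviations from the group means their r was 0.875, the highest of the 9 pairs with Sqstm1. Outside the list, Grhpr and Tpd52l2, picked from 7561 genes as among the most like Sqstm1, had r = 0.943 and 0.939 with it in these libraries (log2 values). An r of this size with Sqstm1 was therefore not particular to Atg8 genes. Sqstm1 and Nbr1 had r = -0.262 and rho = 0.164 (permutation p = 0.46, adjusted p = 0.56), and r = 0.330 without the 2 farthest libraries, so that sign rested on them. Nbr1 and Tax1bp1 had r = 0.840 (permutation p = 0.0065, adjusted p = 0.025) and rho = 0.582 (permutation p of rho = 0.066), with r = 0.565 without 2 libraries. WT replicate 6 was the lowest library for both genes.

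**Figure D5:**
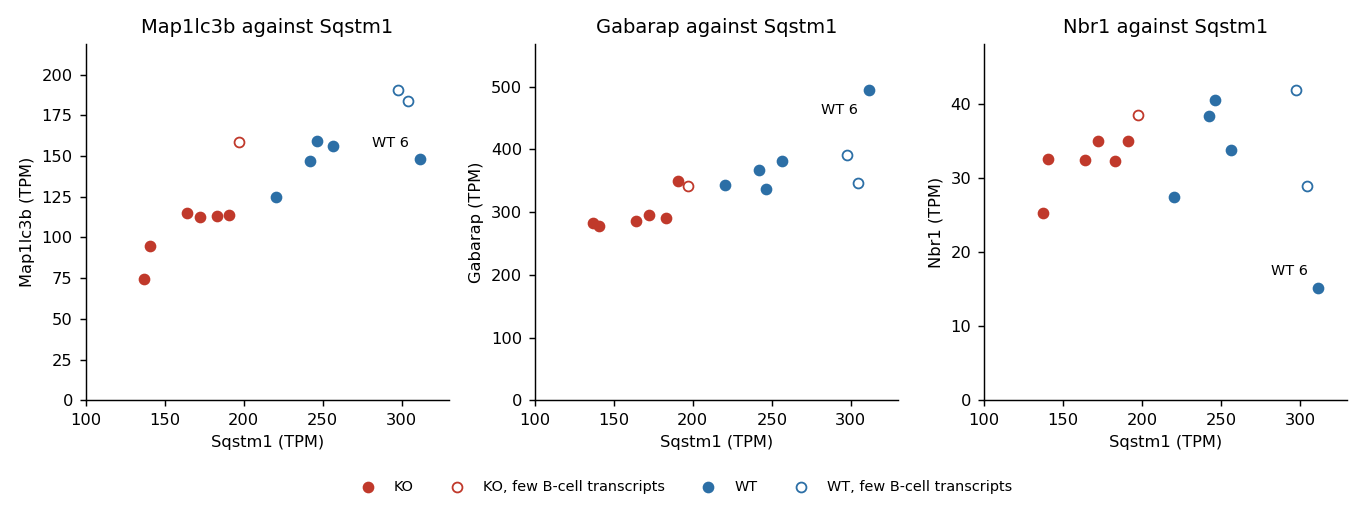
TPM of Map1lc3b (left), Gabarap (middle) and Nbr1 (right) against TPM of Sqstm1, one point per library, KO and WT; open circles are the 3 B-cell-poor libraries. Map1lc3b and Gabarap climb with Sqstm1 over the 14 libraries, and for Nbr1 the point of WT replicate 6 lies lowest, at 15.2 TPM.

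Of 7561 named genes with a mean of at least 10 TPM, those whose log2 values were most like Sqstm1 over the 14 libraries were Tpd52l2, Grhpr (a glyoxylate reductase), Msrb1 (a methionine sulfoxide reductase), Mfng (a Fringe glycosyltransferase) and Cyp2f2 (a cytochrome P450), with r between 0.929 and 0.945. In the 11 libraries r was 0.917 to 0.943. Those most like Map1lc3b were Pmepa1, Apoe (a lipid carrier), Nagk (an amino sugar kinase), Fth1 (the ferritin heavy chain) and Glb1l2, with r between 0.969 and 0.976, and 0.955 to 0.972 in the 11 libraries. These are descriptions over shared libraries, which include the group difference.

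Marker levels of several cell types differed in mean between the groups, and in bulk tissue fewer cells of a type and less RNA per cell cannot be told apart. All 10 adipocyte markers had lower mean values in KO. Their summed level ranged from 15100 to 66980 TPM in KO and from 36280 to 69820 TPM in WT, with a mean log2 score of 10.3 ± 0.8 in KO and 10.9 ± 0.4 in WT (SD of 7 libraries a group, exact permutation p = 0.090). With that score as a covariate the log2 fold change of Sqstm1 was -0.51 ± 0.09 (SE; limma adjusted p = 0.098), against -0.66 without the score. In the fit with the score Map1lc3a stood at -0.40, Map1lc3b at -0.27 and Gabarapl1 at -0.05, and Optn turned to 0.28 and Calcoco1 to 0.03. KO replicate 4, lowest of its group in 7 of the 10 genes, had the lowest adipocyte score of all libraries at 9.06, and KO replicate 7, highest in 9 of the 10, had the highest of its group at 11.4.

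All 8 lipid-associated macrophage markers also had lower mean values in KO, with a summed level of 919 to 1759 TPM in KO and 1695 to 2241 TPM in WT (exact permutation p = 0.0023). Ctsd, Cd63 and Acp5 carried most of this sum, with mean log2(TPM + 1) of 8.96, 8.77 and 8.74 over the libraries. Trem2 and Gpnmb stood at 2.10 and 2.80 on that scale. The 10 general macrophage markers summed to 573 to 1782 TPM in KO and 403 to 2309 TPM in WT (exact permutation p = 0.48). Of these, 8 had lower and 2 higher values in KO. C1qa, C1qb and C1qc were lower at an unadjusted limma p under 0.05, against 6.74% of all genes. The 2 macrophage sums did not always go together. WT replicate 4 had the lowest general sum, at 403 TPM, and a lipid-associated sum of 2067 TPM. The lipid-associated sum therefore cannot be read as a level of macrophages alone. The nuclear RNAs Malat1 and Neat1 went the other way, at a summed 462 ± 123 TPM in KO and 217 ± 46.7 TPM in WT (SD of 7 libraries a group, exact permutation p = 0.0012). The 7 adipose progenitor markers summed to 295 to 762 TPM in KO and 435 to 1778 TPM in WT (exact permutation p = 0.035), with 6 of 7 lower in KO. By their mean log2 score, the measure used for adipocytes, the exact permutation p was 0.10. All 9 B-cell markers had higher mean values in KO, with sums of 8.11 to 2098 TPM in KO and 2.58 to 1513 TPM in WT (exact permutation p = 0.27), and with the B-cell score as a covariate Sqstm1 had a log2 fold change of -0.61 (limma adjusted p = 0.0501). Skeletal muscle markers ranged from 26 to 8216 TPM in sum in KO and from 41.4 to 25170 TPM in WT. With the muscle score as a covariate the log2 fold change of Sqstm1 was -0.62 (limma adjusted p = 0.23). The part of the lipid-associated macrophage markers, the progenitor markers and the nuclear RNAs in the difference of Sqstm1 was not tested.

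Of 82 further genes of the autophagy machinery, all of them tested, 0 passed the limma test. At an unadjusted p under 0.05, 5 were lower in KO and 1 higher, against 6.74% and 4.67% of all genes, and the median log2 fold change was -0.06. None of the 5 genes of the initiating ULK complex and none of the 8 of the phosphatidylinositol 3-kinase complex had an unadjusted p under 0.05. Atg101, of the ULK complex, stood at 29.7 ± 4.4 TPM in KO and 32.2 ± 3.2 TPM in WT.

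Of the 7 conjugation genes, Atg7, the E1-like enzyme that activates Atg8 proteins, stood at 16.5 ± 4.5 TPM in KO and 21.1 ± 2.6 TPM in WT (log2 fold change -0.36 ± 0.15, SE; limma adjusted p = 0.41). Atg16l2, a relative of Atg16l1, stood at 21.3 ± 10.9 TPM in KO and 10.7 ± 5.5 TPM in WT (limma adjusted p = 0.48). Of the 4 Atg4 proteases, Atg4b stood at 20.2 ± 3.7 TPM in KO and 25.2 ± 3.0 TPM in WT (limma adjusted p = 0.38). Among the 10 genes of membrane supply, Wdr45b and Wdr45, which read phosphoinositides on the forming membrane, had log2 fold changes of -0.25 ± 0.09 and -0.32 ± 0.14 (SE; limma adjusted p = 0.33 and 0.42). Of the 8 fusion genes, 4 had lower and 4 higher values, and only Tecpr1 had an unadjusted p under 0.05, at 27.1 ± 4.2 TPM in KO and 20.1 ± 5.2 TPM in WT (limma adjusted p = 0.34).

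Of 16 other selective receptors, 12 had lower and 4 higher values. Tex264, a receptor of the endoplasmic reticulum, stood at 54.4 ± 10.4 TPM in KO and 75.8 ± 9.8 TPM in WT (log2 fold change -0.48 ± 0.13, SE; limma adjusted p = 0.22), and Stbd1, which tethers glycogen, at 5.35 ± 1.95 TPM in KO and 8.31 ± 3.06 TPM in WT (limma adjusted p = 0.44). Of the 14 partners of p62 and genes of the KEAP1-NRF2 arm, 9 had lower values and 0 an unadjusted p under 0.05. The NRF2 targets Gclm and Nqo1 stood at 21.1 ± 3.4 and 3.76 ± 1.78 TPM in KO, against 26.3 ± 5.3 and 5.42 ± 1.86 TPM in WT (limma adjusted p = 0.46 and 0.48). The 6 transcription factors and the 4 ubiquitin genes had medians of 0.00 and -0.01 on the log2 scale. Foxo1 had a log2 fold change of 0.35 ± 0.24 (SE), and Ubb stood at 1534 ± 165 TPM in KO and 1695 ± 338 TPM in WT (limma adjusted p = 0.59 and 0.74).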

How the data were processed

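The authors deposited 1 table of gene-level TPM values, with a column per library and a gene length column; each library column sums to 1000000. Bowtie 0.12.2 and the mouse builds mm8 and mm9 are listed without a role, per the submitters' processing notes. What made the TPM values, with which annotation and strand setting, is not given in the sources used here. The labels do not say that libraries of a group came from separate animals, so p-values measure the spread between these libraries.

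Rows with the same symbol were summed. Genes that reached 1 TPM in 7 or more libraries entered a test on log2(TPM + 1) with limma-trend (limma 3.58.1, R 4.3.3, robust prior, 2-sided), with Benjamini-Hochberg adjustment over all genes and a threshold of 0.05; the pseudocount understates changes of low genes. Single values, and the ratio of Sqstm1 to every tested gene, had exact permutation tests (scipy 1.17.1). The test was tried on simulated data. The members and gene lists were chosen with earlier results of these data known. Named genes are the 10 members, Clec7a, up to 2 genes of smallest p per pathway list, of which not all are printed, and the 5 most alike in pattern to Sqstm1 and to Map1lc3b. No library columns were identical. Promoter sequences are RefSeq's (GRCm38.p6); the table itself has no coordinates.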

Additional observations from a re-analysis of the deposited data

Results flagged for a closer look

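Gabarap in WT replicate 6, at 494 TPM, stood above the other 6 WT libraries, which lay between 336 and 390 TPM. The gap took 0.656 of the range of the group, past the 95% critical value of Dixon's test for 7 libraries. Of 20 such checks (10 genes in each group), chance flags about 1. The same library had the lowest long-gene measure, and without it the log2 fold change of Gabarap was -0.25 (limma adjusted p = 0.36).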

How the results depend on the processing

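Over 32 alternatives Sqstm1 kept a log2 fold change between -0.73 and -0.49 (adjusted p = 0.010 to 0.50). It passed the threshold with array weights (-0.57, adjusted p = 0.012) and with the macrophage score as a covariate (-0.71, adjusted p = 0.010), where 2 and 3 of the 10 genes passed (Sqstm1 and Map1lc3b, and these with Map1lc3a); the cause was not tested. In those fits 823 (248 higher, 575 lower) and 1043 (817 higher, 226 lower) of all genes passed, against 3. The count over all genes was 1 without a filter on low values or with rows as deposited, 19 with quantile normalization (13 higher, 6 lower, against 0 and 3), 9 with median-ratio scaling (3 higher, 6 lower), 6 with TPM rescaled without mitochondrially encoded genes (2 higher, 4 lower), 9 with the adipocyte score (5 higher, 4 lower), and 0 with the muscle score or without the 3 B-cell-poor libraries. In the 10 libraries with shared numbers it was 0 both without and with the replicate block, where Sqstm1 had -0.73 (adjusted p = 0.49 with the block). The block changed no call of the 10 genes. Same-numbered libraries did not all deviate together (r from -0.680 to 0.782 over 5 pairs), so the replicate numbers were read as names and not as pairs. At an unadjusted p under 0.05 the balance over all genes, 992 lower and 687 higher, was 1287 lower and 3212 higher with the macrophage score. The median of all genes moved to 0.11 in those 10 libraries and to 0.12 with the macrophage score.

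Signs turned for Nbr1 with array weights (-0.10) and with the long-gene measure (-0.082), for Tax1bp1 in the same fits (-0.0165 and -0.0191), and for Optn (0.28) and Calcoco1 (0.034) with the adipocyte score. With 1 library left out, Nbr1 ranged from -0.080 to 0.15, Tax1bp1 from -0.0035 to 0.28, Optn from -0.35 to -0.076, Calcoco1 from -0.26 to -0.098 and Sqstm1 from -0.71 to -0.61 (adjusted p = 0.060 to 0.26), 0 of the 10 genes passed in 14 of 14 fits, and the count over all genes ranged from 0 to 6. The difference in the log2 ratio of Sqstm1 to Optn then ranged from -0.54 to -0.35 and that to Map1lc3b from -0.19 to -0.093, both given as descriptions. Count models were not run, since TPM holds no counts.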

Other observations

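The 3 B-cell-poor libraries, KO replicate 7 and WT replicates 4 and 7, held high levels of several of the 10 genes, and since the libraries were set apart by a measured value their levels are given with no test. Optn stood at 44.3 TPM in KO replicate 7 and at 44.5 and 38.2 TPM in WT replicates 4 and 7, above the other 6 KO libraries at 13.5 to 34.3 TPM and the other 5 WT libraries at 21.7 to 30.5 TPM. Gabarapl1 stood at 172 TPM in KO replicate 7 and at 167 and 190 TPM in WT replicates 4 and 7, against 49.7 to 110 TPM and 98.2 to 136 TPM in those other libraries. Map1lc3b stood at 158 TPM in KO replicate 7 and at 184 and 190 TPM in the WT pair, against 74.4 to 115 TPM and 125 to 159 TPM. Sqstm1 in KO replicate 7, at 197 TPM, was the highest of its group and still lay under every WT library.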
